A study of Mus musculus with 12 samples.

Results

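The 7 genes for inhibitors of cyclin-dependent kinases (CDKs) that belong to the Cip/Kip and INK4 families were followed in peeled mouse urothelium, the lining epithelium of the urinary tract. They were taken by symbol (Cdkn1a, Cdkn1b, Cdkn1c, Cdkn2a, Cdkn2b, Cdkn2c and Cdkn2d), and all 7 were found among the 23337 gene symbols of the count tables. Libraries came from Stag2-WT and Stag2-KO mice, with 3 libraries in each of 4 groups, and every animal, wild type included, had been given a diet with TMX (tamoxifen). The diet lasted 1 week, and tissue was taken 1 week or 1 month after its start. Stag2 encodes a cohesin subunit, and the study's title links it to DREAM and to quiescence. The Cre driver, the strain, the age and the recorded sex of the animals are not given in the sources used here. All 1 week libraries are of batch 1 in the labels, replicates 1 and 2 of both genotypes at 1 month are of batch 2, and replicate 3 of both genotypes at 1 month is of batch 3.

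CDKs, switched on by their cyclin partners, phosphorylate the retinoblastoma family of pocket proteins and so carry cells into S phase. The Cip/Kip proteins p21 (Cdkn1a), p27 (Cdkn1b) and p57 (Cdkn1c) bind whole cyclin-CDK complexes, whereas the INK4 proteins p16 (Cdkn2a), p15 (Cdkn2b), p18 (Cdkn2c) and p19 (Cdkn2d) bind CDK4 and CDK6 and keep cyclin D off them. When CDKs are inhibited, the pocket proteins p107 and p130 stay unphosphorylated and can join the DREAM complex, which represses cell cycle genes in resting cells. Urothelium is renewed slowly, and loss of the locus that holds CDKN2A and CDKN2B is a frequent lesion of human bladder tumours.

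In the GENCODE M21 annotation of GRCm38, the build that the submitters' processing notes call mm10, the members lie on 5 chromosomes. Cdkn1a (chr17:29090976-29100727, plus strand), Cdkn1b (chr6:134920401-134925513, plus strand) and Cdkn1c (chr7:143458339-143461050, minus strand) stand apart from each other, and Cdkn2d is at chr9:21288410-21291407 on the minus strand. The other INK4 genes share chromosome 4 and the minus strand: Cdkn2a (chr4:89274471-89294653) and Cdkn2b (chr4:89306299-89311039) are 11645 bases apart, and Cdkn2c is at chr4:109660876-109667189. Cdkn1a is overlapped on the opposite strand by AC167363.2 and Cdkn1c by Gm44732. The libraries keep the sense strand, which lets reads of a gene be told from those of its antisense partner where the counting used strand, as the labels' protocols give it for HTSeq.

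Cdkn2a is one gene symbol for 2 proteins. Transcript Cdkn2a-201 (852 bases) starts at the proximal first exon and encodes p16, and Cdkn2a-202 (895 bases) starts at the distal first exon and encodes p19Arf, an activator of p53 that is not a CDK inhibitor. Both share 575 bases, which are 67.5% of the first and 64.2% of the second, in the exons at chr4:89276645-89276985 and chr4:89274541-89274774, and Cdkn2a-201 runs on to 89274471. Oligo-dT primed libraries place their reads in such 3′ exons, and the tables give 1 count for the symbol, so a Cdkn2a count cannot be assigned to p16 or p19Arf.

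**Figure D1:**
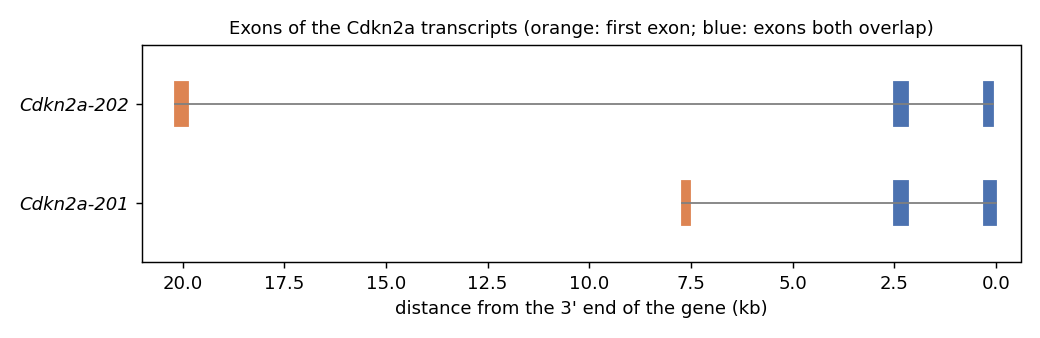
Exons of the Cdkn2a transcripts by distance from the 3′ end of the gene (x axis, kb), with 1 transcript per line and the thin line for introns. The first exons (orange) are separate, and the exons at the 3′ end (blue) are overlapped by both transcripts, with the outermost 3′ end in Cdkn2a-201 alone.

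The stretches before 3 start sites are shown, for the upstream start of Cdkn1a and for the 2 starts that feed 1 Cdkn2a count. Cdkn1a was the most abundant inhibitor as a gene, and its count is not divided by start. In GENCODE, the coding transcript of the upstream start, Cdkn1a-202, ends at chr17:29099701. Cdkn1a-201 starts downstream, at 29093769, and runs on to 29100722. The part of the printed stretches in the levels of these genes was not tested. They are RefSeq promoter windows of build GRCm38.p6 (up to 250 bases before the start, annotated coding-transcript exons left off), available for 6 of the 7 genes in 9 windows, and printed 5′ to 3′ on the gene's own strand. The first is the upstream start of Cdkn1a (chr17:29090729-29090978), with a match to the p53 consensus in capitals, the second the distal start of Cdkn2a (chr4:89294654-89294869), with an E2F word in capitals, and the third the proximal start of Cdkn2a (chr4:89282193-89282442), with none of the motifs searched.
Cdkn1a upstream start: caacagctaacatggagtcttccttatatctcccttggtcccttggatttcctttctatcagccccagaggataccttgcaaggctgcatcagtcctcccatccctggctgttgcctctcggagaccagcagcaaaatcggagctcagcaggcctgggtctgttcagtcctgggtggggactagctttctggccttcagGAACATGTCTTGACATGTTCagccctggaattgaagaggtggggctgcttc
Cdkn2a distal start: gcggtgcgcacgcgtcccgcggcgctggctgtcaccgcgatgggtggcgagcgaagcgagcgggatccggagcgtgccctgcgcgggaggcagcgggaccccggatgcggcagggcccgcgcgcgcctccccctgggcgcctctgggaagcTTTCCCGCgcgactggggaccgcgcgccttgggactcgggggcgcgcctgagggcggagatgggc
Cdkn2a proximal start: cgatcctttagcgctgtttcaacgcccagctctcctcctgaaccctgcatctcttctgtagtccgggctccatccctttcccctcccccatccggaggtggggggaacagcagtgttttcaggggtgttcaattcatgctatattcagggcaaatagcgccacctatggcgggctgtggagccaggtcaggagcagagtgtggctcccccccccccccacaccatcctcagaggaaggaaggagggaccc

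Motifs were searched on both strands in the 250 bases before each start. The E2F words were TTTCCCGC, TTTCGCGC, TTTGCCGC and TTTGGCGC, and the words of the cell cycle homology region (CHR), a DREAM element, were TTTGAA and TTCGAA. The match at Cdkn1a (chr17:29090928-29090947, 1 mismatch allowed and used) lies 51 to 32 bases before the start, and such a match was found in 25 of 32851 windows (0.0761%). The other Cdkn1a window (chr17:29093519-29093768), the Cdkn1b window, each Cdkn2c window and the Cdkn2d window held none of the motifs searched. An E2F word was found in 1.86% of the windows and lies at chr4:89294711-89294718, 99 to 92 bases before the distal Cdkn2a start of RefSeq. That RefSeq start is inside the first exon of GENCODE's Cdkn2a-202, and the word lies before that exon. The 1 CHR word among the 9 windows was in that of Cdkn2b (chr4:89311188-89311193), where 17.1% of all windows hold one. These matches describe letters, and the motif definitions were chosen after the windows had been seen.

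Before the inhibitors were read, the libraries were compared with their labels. Total counts ran from 5580961 to 9497088 per library, and 3 counts, taken as the floor of detection, correspond to between 0.324 and 0.587 CPM (counts relative to the library total, scaled by edgeR's TMM factors over all 12 libraries). Such floors and the intervals below cover counting error only. Stag2 was lower in each KO library than in each WT library of the same time, at 106 to 162 CPM in WT and 59.7 to 75.9 CPM in KO at 1 week, and at 46.2 to 60.1 CPM in WT and 19.8 to 38.4 CPM in KO at 1 month. Its adjusted p was 0.198 at 1 week and 0.0507 at 1 month with edgeR, and 0.0485 and 0.0161 with DESeq2. At 1 week the WT libraries held Y-linked transcripts (1360 to 2140 summed counts) and at most 13 counts of Xist, and the KO libraries held 6392 to 10406 counts of Xist and at most 4 of the Y-linked genes, so sex and genotype cannot be told apart at that time. At 1 month KO replicate 3 alone was Xist-positive, and WT replicate 3 held 945 counts of the Y-linked genes. Sex and genotype thus cannot be told apart within batch 3 either. KO replicate 3 at 1 week resembled the other libraries of its time least, with Spearman correlations across 13122 genes of 0.746 to 0.842. None of the 13 luminal, 8 basal and 15 stromal, muscle and endothelial markers was at 0 in any library, so transcripts of the epithelium and of the tissue beneath it were both present. In a bulk sample, fewer cells of a type and less RNA per cell cannot be told apart.

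In resting urothelium, taken here as the 6 WT libraries, the transcripts of p21 and p27 were the most abundant of the 7, and p57 and p15 were lower but passed 1 CPM in every library. The transcripts of p19 and p18 each passed it in 5 of these libraries, and that of p16/p19Arf in the 3 of 1 week. Because each transcript gives tags from its 3′ end, CPM was compared between genes per transcript and not divided by length. Mean levels were 201 ± 96.9 CPM (SD, n = 6) for Cdkn1a, 82.2 ± 64.5 for Cdkn1b and 13.9 ± 2.87 for Cdkn1c. The INK4 genes followed with 8.01 ± 4.61 CPM for Cdkn2b, 4.6 ± 3.32 for Cdkn2d, 1.26 ± 1.01 for Cdkn2a and 1.24 ± 0.466 for Cdkn2c. The order of the last pair by mean differed between the WT libraries of 1 week and of 1 month, which differ in batch too. Cdkn2a had 2.08 ± 0.667 CPM (SD, n = 3) and Cdkn2c 1.01 ± 0.424 at 1 week. At 1 month they had 0.443 ± 0.297 and 1.47 ± 0.449, with 1 to 5 counts of Cdkn2a per library. Against all genes of the tables, these means stood at percentiles 96.6, 90.3 and 67 for the Cip/Kip genes and between 45.8 and 60.5 for the INK4 genes.

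With expression called at 1 CPM in each WT library, 4 of the 7 inhibitors were expressed: Cdkn1a, Cdkn1b, Cdkn1c and Cdkn2b. Asking for 5 CPM left 3, without Cdkn2b, and asking for 3 counts gave 6, with only Cdkn2a missing. Cdkn2d and Cdkn2c each missed the line by 1 library, Cdkn2d at 0.978 CPM in WT replicate 1 of 1 month and Cdkn2c at 0.544 CPM in WT replicate 3 of 1 week. The proliferation list, 14 genes of S phase and mitosis that mark dividing cells, summed to between 68 and 129 CPM in the WT libraries. Mki67, a gene of that list, had 1.96 to 2.87 CPM in WT at 1 week. In WT replicates 1, 2 and 3 at 1 month it had 24.1, 8.56 and 3.66 CPM, beside 27.2 CPM in KO replicate 1 of 1 week. The WT libraries are thus called resting by genotype and not by each marker.

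Cdkn1a and Cdkn1b were the highest pair in all 12 libraries, and Cdkn1a ranked first in 5 of the 6 WT libraries and Cdkn1b in WT replicate 3 at 1 month. Over the WT libraries, the range of every gene overlapped that of its neighbour in the order, so no neighbouring pair was apart by its range. Within libraries, Cdkn1b was above Cdkn1c, Cdkn2b above Cdkn2d and Cdkn2d above Cdkn2a in all 6, while Cdkn1a was above Cdkn1b, and Cdkn1c above Cdkn2b, in 5 of 6. Cdkn2a was above Cdkn2c in 2 of 6 and level with it in WT replicate 2 of 1 week. Cdkn1c varied least, by 1.72-fold between its lowest and highest WT library, and Cdkn1b varied by 13.1-fold and Cdkn2a by 15.4-fold.

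**Figure D2:**
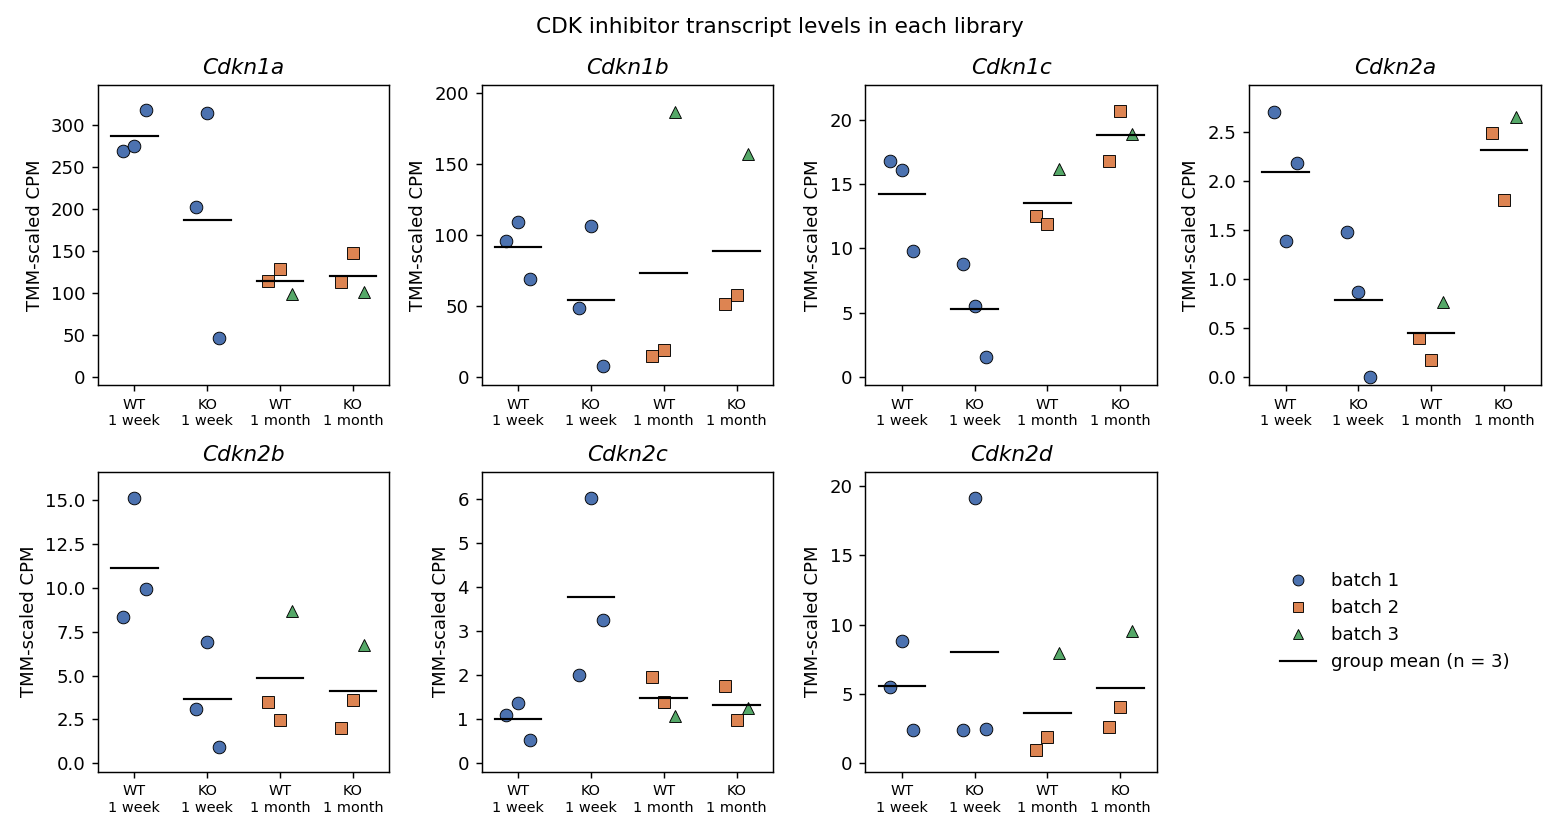
Level of each inhibitor (y axis, TMM-scaled CPM, a separate scale per gene) in the 12 libraries by group, with point shape and colour for batch and a line for the mean of 3 libraries. Cdkn1b in both batch 3 libraries lies between 157 and 187 CPM, above all 1 month libraries of batch 2, and Cdkn2a at 1 month has each KO library above each WT library.

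As shares of the counts of all 7 genes, Cdkn1a made up 64.5% to 77.2% in the WT libraries of 1 week. At 1 month it made up 77.2% and 77.9% in WT replicates 1 and 2 and 30.9% in replicate 3 (95% exact binomial interval 28.9% to 32.9%). In that library, Cdkn1b took 58.4% (56.2% to 60.5%), and in KO replicate 3, the other library of batch 3, it took 52.9% (50.6% to 55.2%). The 4 INK4 genes together held between 3.36% and 10.9% of the summed CPM in any library.

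**Figure D3:**
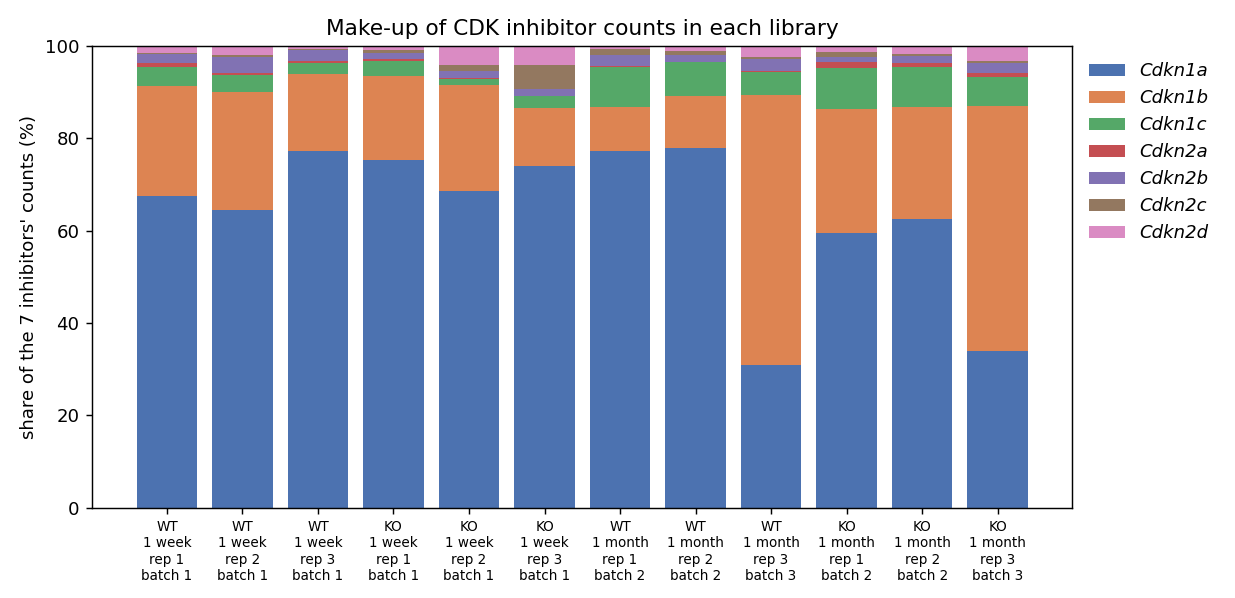
Share of the summed counts of the 7 inhibitors (y axis, %) held by each gene in each of the 12 libraries (x axis). Cdkn1a holds the largest share in 10 libraries, and Cdkn1b does so in both libraries of batch 3.

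The comparison of genotypes asked whether loss of Stag2 came with other levels of these inhibitors. Among the 7 genes, none passed an edgeR adjusted p of 0.05 at either time, while the groups did not overlap for some of them. At 1 week, 8 of 12754 genes passed (0.0627%), and DESeq2 called 891 genes (6.32%) but none of the inhibitors. At 1 month, 269 of 12139 genes passed (2.22%), and DESeq2 called 727 (6.21%), Cdkn1b among them. Nothing beyond a separate identifier in each library's label says that libraries of a group came from separate animals, so the p-values measure the spread between these libraries.

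Cdkn1a encodes p21, the inhibitor that p53 induces after DNA damage. At 1 week it had 269, 275 and 318 CPM in the WT libraries and 202, 315 and 45.6 in the KO libraries. In the 1 month libraries it had 114, 128 and 99.1 CPM in WT and 113, 148 and 101 in KO. The genotypes overlapped at both times, and KO replicate 3 at 1 week was the lowest of all 12 libraries. The log2 fold change, KO against WT, was -0.56 (SE 0.59, edgeR adjusted p 0.659) at 1 week and 0.03 (SE 0.20, edgeR adjusted p 0.942) at 1 month. Both WT times differ in batch as well as in time, so their levels were not compared by a test.

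Cdkn1b encodes p27, which accumulates in resting cells and is removed through Skp2 when they enter the cycle. In WT it had 95.5, 109 and 68.9 CPM at 1 week and 14.3, 18.5 and 187 CPM at 1 month. In KO it had 48.7, 106 and 7.70 CPM at 1 week and 51.0, 57.8 and 157 CPM at 1 month. Replicate 3 of either genotype at 1 month, the libraries of batch 3, stood far above the others of that time, and the genotypes overlapped. The log2 fold change was -0.71 (SE 0.76, edgeR adjusted p 0.667) at 1 week and 0.98 (SE 0.37, edgeR adjusted p 0.161) at 1 month. DESeq2 gave an adjusted p of 0.0458 for the latter.

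For Cdkn1b the difference at 1 month was not of one direction in the batches. In batch 2 the mean was 16.4 CPM in WT and 54.4 CPM in KO, a log2 difference of 1.72 with no overlap. In batch 3, with 1 library of each genotype, the difference was -0.25. Leaving out WT replicate 3 gave 1.67 (edgeR adjusted p 0.000888) and leaving out KO replicate 3 gave 1.68 (edgeR adjusted p 0.000915), since either step leaves the comparison to batch 2. Over all alternatives its log2 fold change ran from 0.23 to 1.68. In WT, Cdkn1b was 11.4-fold higher in batch 3 than in batch 2, at percentile 99 of 12139 genes, whose median fold was 0.978. In KO the same fold was 2.89.

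Cdkn1c encodes p57, which is imprinted and expressed from the maternal allele. At 1 week it had 16.8, 16.1 and 9.80 CPM in the WT libraries and 8.75, 5.50 and 1.54 in the KO libraries. The 1 month libraries had 12.5, 11.9 and 16.2 CPM in WT and 16.8, 20.7 and 18.9 in KO. Each KO library was below each WT library at 1 week and above each at 1 month. Groups did not overlap for 26.5% of all genes tested at 1 week, 14.1% with KO lower, and for 13.3% at 1 month, 6.88% with KO higher and 6.45% with KO lower. The sequence of lower and then higher without overlap was held by 0.94% of the genes tested at both times. Cdkn1c had a log2 fold change of -1.38 (SE 0.60, with 0.326 as the adjusted p of edgeR) at 1 week and 0.44 (SE 0.25, edgeR adjusted p 0.338) at 1 month. Within batches, that difference at 1 month was 0.60 (batch 2) and 0.22 (batch 3).

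Both INK4 genes of the locus on chromosome 4 had their lowest level of 1 week in KO replicate 3. Cdkn2a, for p16 and p19Arf, had 2.70, 1.38 and 2.18 CPM in the WT libraries of 1 week and 1.48, 0.863 and 0 in the KO libraries. A count of 0 in that last library allows up to 0.578 CPM. Those groups overlapped, with a log2 fold change of -1.28 (SE 0.85, with 0.489 as the adjusted p of edgeR), from 54 counts in WT and 19 in KO.

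At 1 month Cdkn2a was at 0.391, 0.175 and 0.762 CPM in WT and at 2.49, 1.80 and 2.65 CPM in KO, so each KO library was above each WT library. The WT values rest on 2, 1 and 5 counts and the KO values on 20, 11 and 17. Summed over libraries, the ratio of KO to WT was 5.08 (95% exact binomial interval 2.38 to 12.4, which leaves out the spread between libraries). The log2 fold change was 2.33 (SE 0.64), which did not pass with an edgeR adjusted p of 0.0714, and DESeq2 gave no adjusted p. KO was above WT within batch 2 (log2 difference 2.12, from 3 counts in WT and 31 in KO, ratio 7.92, interval 2.47 to 40.5) and within batch 3 (1.49). Without WT replicate 3 the log2 fold change was 2.83 (edgeR adjusted p 0.0457), and without KO replicate 3 it was 2.83 (edgeR adjusted p 0.0548). Either step leaves the comparison to batch 2. Over the 13 alternatives that gave an adjusted p, that p ran from 0.0385 to 0.442. A filter at a mean of 20 counts left the gene out.

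Cdkn2b encodes p15, an inhibitor known to be induced by TGF-beta. At 1 week it had 8.35, 15.1 and 9.90 CPM in the WT libraries and 3.10, 6.90 and 0.963 in the KO libraries, so each KO library was below each WT library. The log2 fold change was -1.53 (SE 0.66, edgeR adjusted p 0.326). At 1 month, it had 3.52, 2.45 and 8.69 CPM in WT and 1.99, 3.59 and 6.71 in KO, and the genotypes overlapped (log2 fold change -0.26, SE 0.41, edgeR adjusted p 0.747). As for Cdkn1b, the batch 3 libraries were the highest of their time, 2.91-fold above batch 2 in WT and 2.40-fold in KO.

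Cdkn2c encodes p18, whose gene is a known target of E2F1. It was the 1 inhibitor that was higher without overlap in KO at 1 week, where 12.4% of all genes were so. The WT libraries had 1.10, 1.38 and 0.544 CPM (5 to 12 counts) and the KO libraries 2.02, 6.04 and 3.27 CPM (15 to 56 counts). Its log2 fold change of 1.96 (SE 0.63) had the smallest p of the 7 at that time, with an edgeR adjusted p of 0.215. The ratio of summed counts was 4.03 (95% exact binomial interval 2.58 to 6.50), an interval that leaves out the spread between libraries. The 1 month libraries had 1.96, 1.40 and 1.07 CPM in WT and 1.75, 0.980 and 1.25 in KO. Those groups overlapped, the ratio of summed counts was 0.948 (0.533 to 1.70), and the gene was left out of the edgeR test by the filter on low counts.

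The proliferation list is given beside Cdkn2c. It summed to 68 to 95 CPM in the WT libraries of 1 week and to 189, 939 and 704 CPM in KO replicates 1, 2 and 3, so that KO replicates 2 and 3 were the highest for both. None of its 13 genes tested passed at 1 week, and their median log2 fold change was 3.61 against 0.02 over all genes. At 1 month the list summed to 76 to 129 CPM in WT and 78 to 92 CPM in KO, and its 11 genes tested had a median of -0.16. Its part in the level of Cdkn2c was not tested.

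Cdkn2d encodes p19Ink4d, which also binds CDK4 and CDK6. It had 5.52, 8.83 and 2.39 CPM in the WT libraries of 1 week and 2.42, 19.1 and 2.50 in the KO libraries, where KO replicate 2 alone exceeded every WT library. At 1 month it had 0.978, 1.92 and 7.93 CPM in WT and 2.62, 4.08 and 9.52 in KO. The genotypes overlapped at both times. The log2 fold change was 0.58 (SE 0.90, edgeR adjusted p 0.770) at 1 week, -1.16 without KO replicate 2, and 0.73 (SE 0.44, edgeR adjusted p 0.359) at 1 month. The batch 3 library was 5.47-fold above the batch 2 mean in WT and 2.84-fold in KO.

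**Figure D4:**
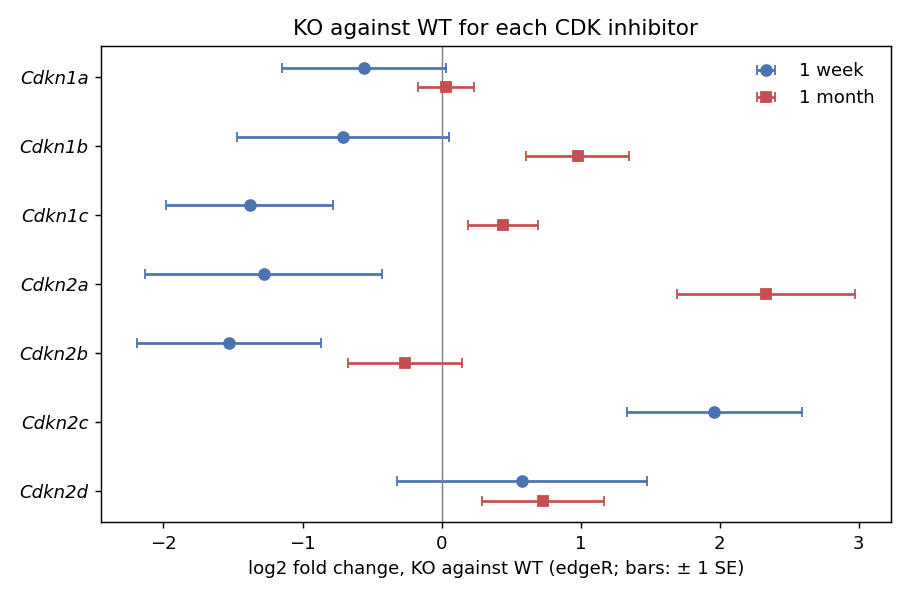
Log2 fold change of KO against WT from edgeR (x axis) for each inhibitor (y axis) at 1 week (blue circles) and 1 month (red squares), with bars of 1 SE. No value passed an adjusted p of 0.05, Cdkn2c was not tested at 1 month, and the bars are wider at 1 week for every gene tested at both times.

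Counted over the family, 5 of the 7 log2 fold changes were negative at 1 week and 5 of the 6 tested were positive at 1 month. Their medians were -0.71 and 0.59, where all genes tested had 0.02 and -0.01. The groups did not overlap for 3 inhibitors at 1 week (Cdkn1c, Cdkn2b and Cdkn2c), where 26.5% of all genes did not, and for 2 at 1 month (Cdkn1c and Cdkn2a), where 13.3% did not. An unadjusted p under 0.05 was reached by 1 of 7 at 1 week, where 15.5% of all genes reached it, and by 2 of 6 at 1 month, where 21.5% did. The summed Cip/Kip level was 381 to 400 CPM in WT at 1 week against 259, 427 and 54.9 CPM in KO, so the WT libraries lay close together and the KO libraries did not. At 1 month, that sum was 141, 159 and 303 CPM in WT and 180, 227 and 277 CPM in KO.

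Without KO replicate 3 of 1 week, the log2 fold changes of that time were closer to 0 for Cdkn1a (-0.15), Cdkn1b (-0.23), Cdkn1c (-1.02), Cdkn2a (-0.85) and Cdkn2b (-1.14). The edgeR adjusted p of these genes lay between 0.183 and 0.801 without it. Without KO replicate 2 the values moved the other way for Cdkn1a (-1.21), Cdkn1b (-1.69) and Cdkn2b (-2.41), with edgeR adjusted p of 0.271, 0.235 and 0.167, and Cdkn2a was at -1.99 without KO replicate 1 (edgeR adjusted p 0.358). Stromal, muscle and endothelial markers summed to 4035 to 6116 CPM in WT and 6212 to 11516 CPM in KO at 1 week, and the 11 immune markers to 98 to 169 CPM and 226 to 489 CPM, with at most 3 of them at 0 in a library. At 1 month the sums were 10806 to 13667 CPM in WT and 8654 to 10260 CPM in KO for stroma, and 407 to 894 CPM and 233 to 284 CPM for immune markers. By gene, 8 of the 15 stromal, muscle and endothelial markers were higher and 7 lower in KO at 1 month. Their median log2 fold change was 0.11, so the lower sums in KO do not describe the list gene by gene. Luminal markers summed to 10659 to 14232 CPM in WT and 8167 to 12929 CPM in KO at 1 week, and to 14612 to 28711 CPM and 10439 to 15697 CPM at 1 month. Basal markers summed to 4225 to 5263 CPM in WT and 3241 to 7740 CPM in KO at 1 week, and to 2788 to 4313 CPM and 4308 to 6806 CPM at 1 month. Of the 7 basal markers tested at 1 month, 4 were higher and 3 lower in KO, with a median log2 fold change of 0.2. Among these markers, edgeR called Krt20 (log2 fold change -1.76), a keratin of umbrella cells, the complement genes C1qa (-1.95) and C1qb (-1.38) and the macrophage receptor gene Csf1r (-1.13) lower in KO at 1 month, and Pdgfrb (1.30), a pericyte and fibroblast receptor gene, higher. The part of cell composition in the levels of the inhibitors was not tested.

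Whether the genotype difference itself differed between the times was tested as an interaction over all 12 libraries with batch as a covariate. None of the 13122 genes passed with edgeR (0%), while 19.9% had an unadjusted p under 0.05 and DESeq2 called 856 genes (6.18%). The interaction had a median of 1.28 on the log2 scale over the 7 inhibitors and of -0.04 over all genes tested. Of the 7 inhibitors, 6 had a larger KO-minus-WT difference at 1 month than at 1 week, and 3 had an unadjusted p under 0.05. Those 3 were Cdkn2a with a difference of 3.66 on the log2 scale (SE 1.11, edgeR adjusted p 0.137), Cdkn1c with 1.83 (SE 0.65, edgeR adjusted p 0.176) and Cdkn2c with -2.11 (SE 0.84, edgeR adjusted p 0.206). DESeq2 called Cdkn2a (log2 3.72, adjusted p 0.0400) and none of the others. The remaining differences were 1.73 for Cdkn1b, 1.28 for Cdkn2b, 0.61 for Cdkn1a and 0.20 for Cdkn2d, with edgeR adjusted p of 0.324, 0.375, 0.631 and 0.934. Without KO replicate 3 of 1 week, Cdkn1a was at 0.15 and Cdkn2d turned to -0.25, and the other inhibitors kept their direction. Leaving out both KO replicate 3 of 1 week and batch 3, a step chosen after seeing the data, brought Cdkn1b (1.87, edgeR adjusted p 0.0401) and Cdkn2a (3.64, edgeR adjusted p 0.0431) past the threshold.

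The partners of the inhibitors were read from the same fits. Of the CDKs and cyclins, 14 of 15 listed genes were tested at 1 week and 10 at 1 month, and none passed (median log2 fold change 0.47 and 0.09). None of the 3 pocket protein genes Rb1, Rbl1 and Rbl2 passed at either time, with medians of -0.28 and 0.22. Of 11 genes for p27 turnover and CDK activation, 10 were tested at 1 week and 9 at 1 month, and 1 passed at 1 month. This was Cdc25b, a phosphatase that activates CDKs. It had 53.4, 47.9 and 56.6 CPM in the WT libraries of 1 month and 18.9, 25.5 and 35.3 in the KO libraries, so each KO library was lower, and it fell by 1.06 on the log2 scale (SE 0.23, edgeR adjusted p 0.0327). Without the batch covariate no gene passed at 1 month, Cdc25b included. At 1 week Cdc25b overlapped between the genotypes, with a log2 fold change of -0.22 (SE 0.53, with 0.858 as the adjusted p of edgeR).

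Genes upstream of the inhibitors gave no call either. None of the 21 listed regulators, among them Trp53, Foxo, Smad and Polycomb genes, passed at 1 week (20 tested, median log2 fold change -0.12) or at 1 month (18 tested, 0.19). Of 18 other p53 target genes, 17 were tested at 1 week and 16 at 1 month, with medians of -0.01 and -0.13 and none called, beside the p21 gene at -0.56 and 0.03. The 10 genes of the imprinted domain around Cdkn1c and beside it had medians of -0.23 at 1 week and 0.37 at 1 month with none called. Mtap, which neighbours the Cdkn2a and Cdkn2b locus, had 0.02 and 0.17, and the other listed neighbour, Dmrta1, did not pass the filter on low counts.

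For the 3 inhibitors with a mean of at least 10 CPM, the genes whose log2 CPM was most alike over the 12 libraries were found among 13122 genes. Cdkn1a was most like B230219D22Rik (Pearson r = 0.964), Fam98b (0.964) and Pof1b (0.955). Among the genes most like Cdkn1b were Yap1 (0.984) and Thap11 (0.980). Cdkn1c was most like D930048N14Rik (0.974), Zbtb4 (0.968) and Rgma (0.965). These values describe 12 libraries that share batches, and they were not computed within a batch.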

How the data were processed

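RNA of peeled urothelium was read with QuantSeq 3′ libraries (oligo-dT primed, sense strand), per the labels' protocols. The deposited tables, 1 for each time, hold raw counts per gene symbol that the authors made. The submitters' processing notes name Bowtie, TopHat, HTSeq, DESeq2 and mm10, without versions of the tools, and the annotation is not given in the sources used here. Genotype and time in the labels gave the groups, and accession order gave the replicate numbers, which pair nothing. The column of WT replicate 3 at 1 month was matched through its library name, since its title carries another number. No 2 replicates held counts within sampling noise of each other.

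Counts were tested with edgeR 4.0.16 (R 4.3.3), quasi-likelihood with robust dispersions, TMM scaling and filterByExpr, two-sided. The p-values were adjusted by Benjamini-Hochberg over every gene in a fit, with 0.05 as threshold. The 6 libraries of a time were fitted alone (at 1 month with batch as covariate) and all 12 for the interaction. The SE is the absolute log2 fold change over the square root of F. CPM were TMM-scaled over 12 libraries, with a prior count of 2 on the log2 scale. DESeq2 1.42.0 was an alternative, as were other scalings, filters, covariates and leaving out each library. The scripts were tested on simulated data. Within the lists, genes with an adjusted p under 0.05 were named, up to 3 per list and fit, beside the 7 inhibitors, Stag2, Xist, Y-linked genes and the 3 genes most alike, of which 1 is not reported here. The inhibitors and the lists were chosen with earlier results of these data known.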

Additional observations from a re-analysis of the deposited data

Results flagged for a closer look

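The KO-minus-WT difference of Cdkn1c, the gene for p57, was 1.83 larger on the log2 scale at 1 month than at 1 week, because every KO library was below every WT library at 1 week and above every WT library at 1 month. The interaction did not pass over all genes (edgeR adjusted p 0.176, DESeq2 adjusted p 0.0745), and over the other edgeR alternatives planned the adjusted p ran from 0.0870 to 0.374. It was 0.0633 without KO replicate 3 of 1 week and batch 3 together, chosen after seeing the data. Such a pattern, lower without overlap and then higher without overlap, was held by 112 of 11919 genes tested at both times (0.94%). Time and batch vary with this pattern, and so does sex, at 1 week and within batch 3 at 1 month. They cannot be told apart in these libraries.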

How the results depend on the processing

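No paired analysis was possible because replicate numbers follow accession order and name no shared animal. At 1 week no inhibitor passed under any alternative run. Genes passing there numbered 8, against 62 with no filter on low counts, 891 with DESeq2 and 0 to 320 when each library was left out in turn, the highest without KO replicate 3. Cdkn2d ran from -1.16 (without KO replicate 2) to 1.09 with each library left out.

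At 1 month 269 genes passed (121 higher, 148 lower), against 561 with library size alone (456 higher, 105 lower), 1276 with no filter, 727 with DESeq2, 0 without the batch covariate, 1474 with batch 2 alone, 1539 with batch and an Xist indicator, and 45 to 1522 with each library left out. Library size alone moved the median of all genes by 0.23 on the log2 scale at 1 month and by 0.25 in the interaction. Inhibitors passing there, 0 in the report, numbered 1 with library size alone (Cdkn2a, 2.54, adjusted p 0.0416), 2 with no filter (Cdkn1b, 1.03, adjusted p 0.00119, and Cdkn2a, 2.39, adjusted p 0.0410), 1 with DESeq2 (Cdkn1b, 1.02), 2 with batch 2 alone (Cdkn1b, 1.68, adjusted p 0.00147, and Cdkn2a, 2.83, adjusted p 0.0424), 2 with batch and the Xist indicator (1.67, adjusted p 0.000807, and 2.83, adjusted p 0.0385) and 0 to 2 with each library left out. The Xist indicator takes up KO replicate 3, so that fit too rests on batch 2. Cdkn1a ran from -0.09 to 0.18 with each library left out, below 0 without KO replicate 2 (-0.09) or WT replicate 1 (-0.03).

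In the interaction, 0 genes passed, against 137 with no filter, 856 with DESeq2, 0 to 440 with each library left out and 1259 without KO replicate 3 of 1 week and batch 3 together, which was chosen after seeing the data. Inhibitors passing numbered 1 with DESeq2 (Cdkn2a, 3.72) and 2 in the last of these (Cdkn1b, 1.87, and Cdkn2a, 3.64). Cdkn2d turned to -0.04 without batch beyond time and ran from -0.32 to 1.94 with each library left out, below 0 without WT replicate 2 (-0.32), KO replicate 1 (-0.24) or KO replicate 3 (-0.25) of 1 week, or WT replicate 1 (-0.07) or KO replicate 2 (-0.03) of 1 month. The cause of these shifts was not tested. The number of inhibitors expressed in WT, 4, became 5 with size factors of the DESeq2 kind and 4 to 5 with each WT library left out. A filter at a mean of 20 counts left out Cdkn2a and Cdkn2c. Depth limits Cdkn2a and Cdkn2c most, at 22 counts or fewer in each WT library.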

Other observations

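Around Cdkn1c, which lies in an imprinted domain on distal chromosome 7, the maternally expressed noncoding RNA H19 had the largest difference of the 10 listed neighbours at 1 week. Its WT libraries averaged 0.315 ± 0.263 CPM (SD, n = 3) and its KO libraries 7.26 ± 4.83, with a difference of 4.55 on the log2 scale (SE 0.79, adjusted p 0.0934 by edgeR), while Cdkn1c and Igf2 were at -1.38 and -0.74. At 1 month H19 was at 0.83 (edgeR adjusted p 0.478) and Igf2 at 1.31 (edgeR adjusted p 0.0638). Kcnq1ot1, the antisense RNA of the Cdkn1c domain, was at 0.02 and -0.17. Ascl2, Phlda2 and Slc22a18, also listed, were at -1.73, -1.59 and -0.88 at 1 week and at -0.71, 0.8 and 0.65 at 1 month. Of the 10 listed neighbours, 4 were positive and 6 negative at 1 week, and 8 were positive and 2 negative at 1 month.

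Among the regulators listed upstream of the inhibitors, Cbx7, a Polycomb subunit known for repressing Cdkn2a, averaged 28.5 ± 10.5 CPM in the WT libraries of 1 week and 7.93 ± 0.999 in the KO libraries (log2 fold change -1.79, SE 0.39, edgeR adjusted p 0.121). The averages of 1 month were 17.3 ± 13.9 CPM for WT and 22.4 ± 12 for KO (log2 fold change 0.48, edgeR adjusted p 0.329). Klf4, which is known to act on Cdkn1a, was at 1.32 (edgeR adjusted p 0.320) and -0.90 (edgeR adjusted p 0.0620). H19, Igf2, Kcnq1ot1, Ascl2, Phlda2, Slc22a18, Cbx7 and Klf4 were singled out after their values were seen, and none passed the threshold of 0.05.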
